A study of Homo sapiens with 102 samples.

Results

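The metallothionein genes MT2A, MT1L, MT1E, MT1B, MT1F, MT1G, MT1H and MT1X were followed in every library of a small combinatorial drug screen, as 8 of the 24965 genes in the count table. They were selected on their family name and on measured values, since the change of MT1X and MT2A with YM115 and the high levels of the family were already known when the list was drawn up. The YM115 values of the members are therefore given as a description without a test. Where members past the threshold with YM115 are counted, nothing is read from the count. The tests of the members below concern imatinib, trametinib, the listed position of a drug, pairs of drugs and the separate solvent controls. The tests of position and of pairs include terms for YM115, from values known when the members were chosen. The p-values that take in such a term are printed as a description.

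The cells were K562, an established human line from a chronic myelogenous leukaemia, in which BCR is fused to ABL. Single cells were enclosed in picoliter droplets with 2 portions of drug or solvent and with barcode fragments that recorded both, incubated for 12 h, lysed, and sequenced as pools, 1 pool per condition. The 4 agents were the solvent DMSO, imatinib (an inhibitor of the ABL kinase), trametinib (an inhibitor of the MEK kinases) and YM115, as the labels spell the survivin-expression inhibitor that the study calls YM155. All 16 ordered pairs were made in 3 runs in each of 2 screens, called dT and Bio, that differed in which barcode fragment accompanied which source of drug, and 3 separate DMSO controls were added per screen, which gave 34 groups of 3 libraries. A condition is written with its first-listed and its second-listed agent, as in YM115_Imatinib, so DMSO_DMSO is the solvent control inside the screen and YM115_YM115 holds 2 portions of YM115. Every group therefore shared the line and DMSO as solvent, and the fused kinase that imatinib inhibits was present in all of them. The in-screen groups also shared the droplet format, which was not established for the separate controls.

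Metallothioneins are small, cysteine-rich proteins that bind zinc and copper and can also hold cadmium. Their genes are switched on when the zinc-sensing transcription factor MTF1 binds short metal response elements in the promoter, and the proteins buffer free metal and scavenge reactive oxygen. In human cells MT2A and the MT1 genes lie side by side in a cluster on chromosome 16, where MT2A is often the most abundant and MT1L is annotated as a pseudogene.

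In GRCh38 with the GENCODE v29 annotation the 8 genes run from MT2A at chr16:56608199-56609497 to MT1X at chr16:56682424-56684196. Between them lie MT1L (chr16:56617476-56618818), MT1E (chr16:56625475-56627112), MT1B (chr16:56651899-56653204), MT1F (chr16:56657694-56660698), MT1G (chr16:56666731-56668065) and MT1H (chr16:56669814-56671129). MT1G is on the minus strand and the other 7 are on the plus strand. MT1L is a transcribed unprocessed pseudogene, and the remaining 7 encode proteins.

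The sequences upstream of the genes are shown because they hold the metal response element core that the family is known for. Promoters of 4 of the 8 members, MT2A, MT1B, MT1H and MT1X, were found among the RefSeq promoters of GRCh38.p14, and the core was searched on both strands as TGCACNC and TGCGCNC in the 250 bases before the start. No match of one form overlapped a match of the other. The lines below run 5′ to 3′ on the plus strand with the matches in capitals, and a match on the minus strand appears as its reverse complement. The lines for MT2A show 2 of its 7 matches with 10 bases on each side, because the whole window lies in an exon of a longer annotated transcript of the gene, and the MT1X line stops at the first annotated base.
MT2A, chr16:56608486-56608512: agcgcggggcGTGTGCAggcagcgccc
MT2A, chr16:56608520-56608546: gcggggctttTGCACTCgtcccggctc
MT1B, chr16:56651636-56651885: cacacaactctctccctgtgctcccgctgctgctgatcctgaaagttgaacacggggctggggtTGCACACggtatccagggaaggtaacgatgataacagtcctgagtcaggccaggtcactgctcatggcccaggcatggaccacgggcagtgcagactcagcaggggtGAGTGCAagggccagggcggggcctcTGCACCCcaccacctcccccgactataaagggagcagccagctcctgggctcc
MT1H, chr16:56669564-56669813: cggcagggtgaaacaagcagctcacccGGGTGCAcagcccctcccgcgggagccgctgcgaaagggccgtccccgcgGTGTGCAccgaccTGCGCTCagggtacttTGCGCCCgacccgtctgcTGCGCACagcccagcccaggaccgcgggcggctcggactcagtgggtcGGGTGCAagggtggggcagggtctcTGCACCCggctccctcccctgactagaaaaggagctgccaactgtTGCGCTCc
MT1X, chr16:56682220-56682423: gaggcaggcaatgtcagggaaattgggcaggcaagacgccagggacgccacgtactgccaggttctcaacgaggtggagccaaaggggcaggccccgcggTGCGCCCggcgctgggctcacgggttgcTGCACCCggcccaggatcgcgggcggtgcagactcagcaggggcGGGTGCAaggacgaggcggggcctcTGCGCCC

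MT1H held 8 matches, MT2A 7, MT1X 4 and MT1B 3. Of the 35116 RefSeq promoters searched in the same way, 24.8% held at least 1 match, 1.58% at least 3, 0.37% at least 4 and 0.0313% at least 7. A match is a description of the letters and not a measured binding site.

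The likeness of the members limits how their counts can be read. Coding sequences of the 7 protein-coding members were 88.5% (MT2A and MT1B) to 95.1% (MT2A and MT1G) identical over 21 pairs, with a median of 91.3%. Over the last 400 bases of each transcript, where a poly-dT primed read is likely to fall, a window of 59 bases was shared with another annotated gene in 45% of MT1X windows, chiefly with the overlapping AC026461.1 and with MT1G and the pseudogene MT1XP1. The share was 19.6% for MT1B, 15.6% for MT1H, 14.3% for MT1G, 6.14% for MT1E and 4.97% for MT2A, and it was lowest for MT1F (3.22%) and MT1L (2.05%). How reads that match several genes were counted is not given in the sources used here, so the split between MT1X, MT1G, MT1H, MT1B and their copies is uncertain, whereas MT2A shared few windows.

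All 48 dT libraries and 44 of 48 Bio libraries held at least 1000 detected genes and at most 15% mitochondrial counts, with totals of 127042 to 759756 counts in dT and 81806 to 780143 in Bio. The 4 left out were Bio Imatinib_Imatinib in all 3 runs and Bio DMSO_Trametinib run 1, and their values are given separately near the end. K562 markers were present where they are abundant, with HBG2 (fetal globin) in 48 of 48 and 44 of 44 libraries and GATA1 (erythroid transcription factor) in 38 and 24. The T and B cell markers CD3E and MS4A1 were at 0 throughout, although CD3D was counted in 12 and 5 libraries. The epithelial gene CDH1 was counted in every library at a median of 121 CPM in dT and 125 in Bio, while KRT5 was counted in 1 library. In pools, fewer cells and less RNA per cell cannot be told apart, and levels below are counts divided by the library total, as CPM.

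MT2A and MT1X were the abundant members in both screens, MT1G and MT1H followed, and MT1E, MT1B, MT1F and MT1L were scarce. Per kilobase of exon, the mean level in dT was 6606 CPM for MT2A, 2421 for MT1X, 1091 for MT1G and 456 for MT1H, against 108 for MT1E, 101 for MT1B, 15.3 for MT1L and 14.2 for MT1F. In Bio the same quantity was 23375 for MT2A, 9310 for MT1X, 4489 for MT1G, 1781 for MT1H, 1077 for MT1B, 447 for MT1E, 89.1 for MT1F and 44.5 for MT1L. The MT1L values lean on 1 library each. Without DMSO_Trametinib run 1 in dT and DMSO_DMSO run 2 in Bio they were 5.73 and 28.3. The per-kilobase order of MT1L and MT1F in dT thus turns with the first of these libraries. Counts of poly-dT primed reads need not scale with exon length, and in plain CPM the scarce members stood in another order. By mean CPM, MT1F (26.8) was above MT1L (6.28) in dT, and MT1E (470) above MT1B (409) in Bio. The order of the 4 abundant members was the same in both screens. Together the 8 genes took 0.788% to 2.33% of the counts of a dT library (median 1.39%, n = 48) and 2.68% to 8.34% of a Bio library (median 5.18%, n = 44).

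Inside the screens, every member had a higher mean in Bio than in dT. MT2A lay between 5028 and 14443 CPM in dT, around a median of 8524 (mean 8581 ± 2099, SD, n = 48). In Bio it lay between 18365 and 47218 CPM, around a median of 29544 (mean 30364 ± 6032, n = 44). Every Bio library that passed thus stood above every dT library for MT2A. Of the 909 genes counted in 50% or more of the passing libraries of each screen, this was true of 1 (0.11%), MT2A itself. It was true of no gene in the opposite direction. The levels of all 8 members were known when they were chosen, so this is a description with no test.

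The ratio of the Bio mean to the dT mean was 3.54 for MT2A, 3.85 for MT1X, 4.12 for MT1G and 3.9 for MT1H. For MT1X the medians were 16307 and 4056 CPM, and the ranges, 5715 to 33343 in Bio and 1474 to 7968 in dT, overlapped. MT1G had medians of 2950 and 714 CPM and MT1H of 819 and 317 CPM, with wide overlap in both. On the log2 scale the median of the 909 genes was -0.03 (Bio over dT). In 34 of them (3.74%) the Bio mean was more than 2-fold above the dT mean. With effective library sizes after trimmed-mean scaling (TMM) the log2 ratio of MT2A was 1.53 in place of 1.82. In the separate DMSO controls the means lay the other way, with MT2A at 4486 CPM in Bio and 9323 in dT, MT1X at 822 and 1545, MT1G at 303 and 1118, and a median family share of 0.243% and 1.25% (n = 3 each). Screen and barcoding arrangement cannot be told apart in this design, nor can any other difference between the screens.

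**Figure D1:**
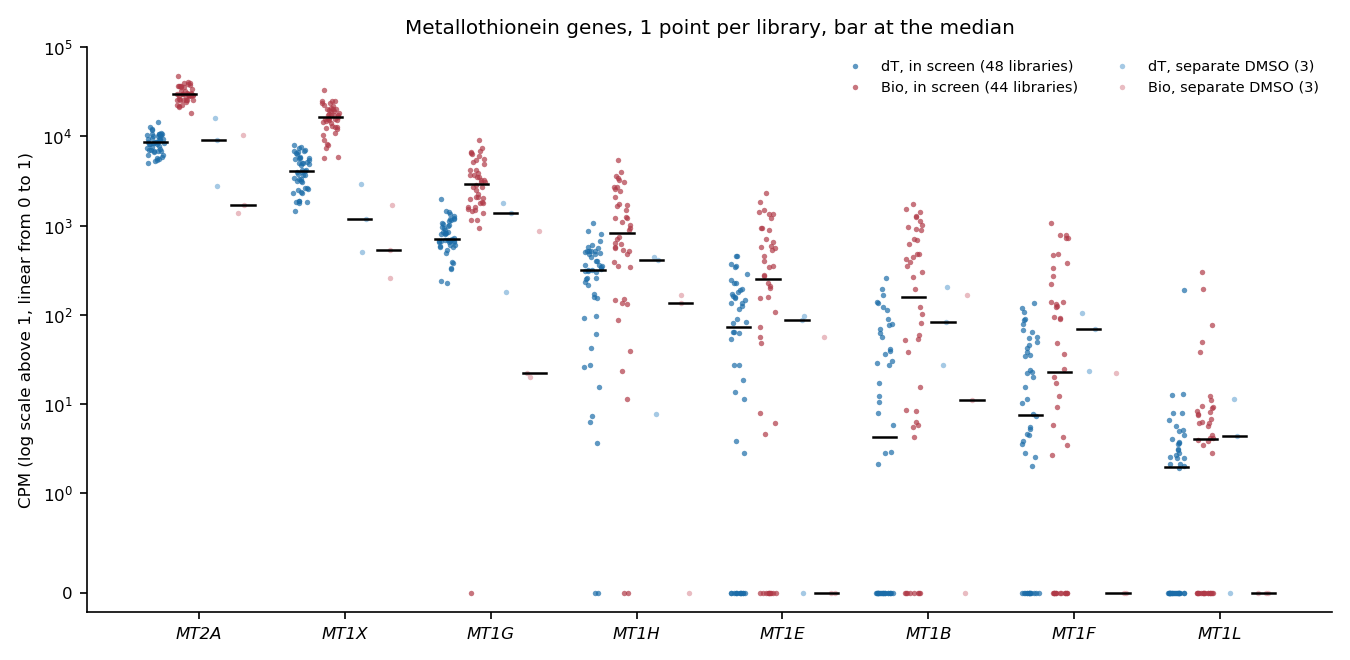
CPM of the 8 members, 1 point per library, in the dT screen (n = 48), the Bio screen (n = 44) and the 3 separate DMSO controls of each, on an axis that is linear from 0 to 1 and logarithmic above; bars are medians. MT2A is the member whose Bio points, from 18365 CPM up, all lie above the dT points, which end at 14443 CPM.

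The 4 scarce members were counted in part of the libraries and in small numbers. MT1E had a count in 35 of 48 dT and 34 of 44 Bio libraries, with medians of 72.7 and 252 CPM. MT1B had a count in 27 and 36 libraries and showed the steepest ratio of means, 10.7, from a median of 4.33 CPM in dT to 159 in Bio. MT1F was counted in 34 and 30 libraries at medians of 7.54 and 22.6 CPM, and the pseudogene MT1L in 25 and 26 at 1.97 and 4.04 CPM. For MT1L, 21 of the 25 dT libraries and 19 of the 26 Bio libraries rested on 1 to 3 counts, and its highest count in a library was 41 in dT and 45 in Bio. A count of 0 still allows up to 3 counts, so a library at 0 does not show that the gene was silent.

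Within dT, all 7 conditions that contained YM115 were the 7 highest of 16 for MT1X. The highest was YM115_Imatinib with 7968, 5573 and 7517 CPM in runs 1, 2 and 3, followed by YM115_Trametinib (5737, 6912 and 6591), YM115_YM115 (6543, 5736 and 6343) and YM115_DMSO (5866, 5682 and 7037). The 3 with YM115 listed second came next, DMSO_YM115 with 4096, 5031 and 7383, Trametinib_YM115 with 3677, 5010 and 6770 and Imatinib_YM115 with 3663, 5493 and 5129. The highest condition without YM115 was Imatinib_Trametinib with 4016, 4934 and 2322 CPM. DMSO_DMSO (3310, 1474 and 2360) and Trametinib_DMSO (2647, 2643 and 1846) stood lowest. None of the 15 steps between neighbours in this order was larger than the SD over the 3 runs of the wider of the pair, so the order is clear between its ends and not between neighbours.

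MT2A in dT was also highest in YM115_Imatinib, with 12845, 10848 and 14443 CPM, and next highest in YM115_DMSO with 11988, 10302 and 10729. It was lowest in Trametinib_DMSO with 5816, 5675 and 5264, below DMSO_DMSO with 5028, 7008 and 6838. Imatinib_Imatinib, with 9437, 9448 and 10022, had the highest mean of the conditions without YM115. Again none of the 15 neighbouring steps exceeded the spread over runs. MT1G in dT had all 7 YM115 conditions on top as MT1X did, from YM115_Trametinib (1995, 1434 and 1211 CPM) down to DMSO_Imatinib (661, 394 and 225), which was lowest.

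In Bio the order was different. MT2A was highest in YM115_DMSO with 47218, 35457 and 35917 CPM and, among conditions that passed, lowest in Trametinib_Trametinib with 22450, 22517 and 25612. DMSO_DMSO, at 29951, 29494 and 39496, lay in between, above several conditions with YM115. For MT1X in Bio the runs of 1 condition lay far apart, as in YM115_Imatinib with 33343, 15220 and 12181 CPM and in DMSO_DMSO with 5715, 8254 and 17163. MT1G in Bio was at 9027, 3719 and 6044 CPM in DMSO_Imatinib and at 4907, 0 and 3726 in Imatinib_DMSO, so a single run could be empty in a condition where the others were high.

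**Figure D2:**
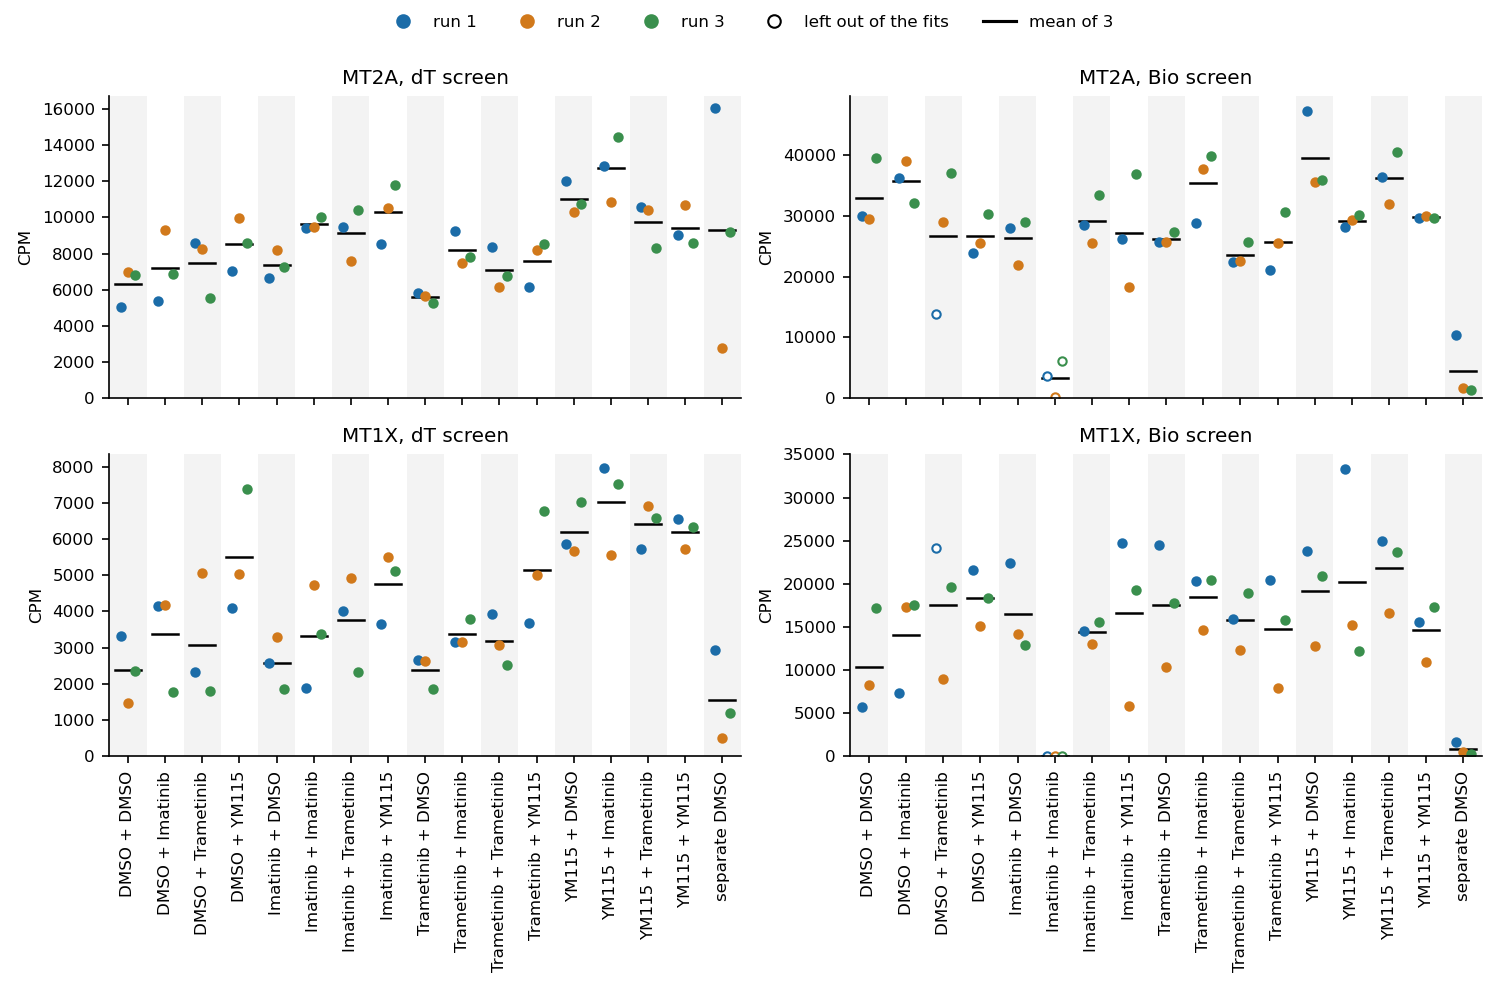
CPM of MT2A and MT1X in each condition of dT and Bio and in the separate DMSO controls, 1 point per library. Bars are means of 3 libraries and open points are libraries left out of the fits. The separate controls are placed by their number, which the labels do not call a run. In dT the 7 YM115 conditions carry the highest MT1X bars, whereas in Bio the 3 runs of a condition often lie far apart, as in YM115_Imatinib from 12181 to 33343 CPM of MT1X.

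Pooled over conditions, the dT libraries with YM115 held 5893 ± 1204 CPM of MT1X (lowest 3663, median 5737, highest 7968, n = 21) and those without it 3046 ± 1031 (lowest 1474, median 3064, highest 5076, n = 27). The ranges overlapped between 3663 and 5076 CPM. The ratio of run means was 1.72, 1.56 and 2.77 in runs 1, 2 and 3. In the fit of drug terms with run as a block (edgeR), the log2 change of MT1X was 1.11 (SE 0.14), beside a median of 0.21 over all genes tested.

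MT2A moved less and in the same direction in each run of dT, from 7552 ± 1582 CPM without YM115 (5028 to 10385, n = 27) to 9903 ± 1960 with it (6128 to 14443, n = 21). Its run ratios were 1.25, 1.32 and 1.37 and its fitted log2 change was 0.53 (SE 0.10). MT1G rose from 621 ± 222 to 1072 ± 319 CPM, with run ratios of 1.49, 1.98 and 1.78 and a log2 change of 0.85 (SE 0.22). MT1H was at 291 ± 254 and 379 ± 232 CPM, a difference well inside its spread (log2 change 0.53, SE 0.57). MT1X, MT2A and MT1G were 3 of the 7 members tested that passed in dT, where 2.62% of 3930 genes did. Since this contrast chose the members, nothing is read from that count.

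In Bio the YM115 contrast was small beside the spread. MT1X was at 17923 ± 6380 CPM with YM115 (n = 21) and 15212 ± 4911 without (n = 23), and its run ratios were 1.48, 0.974 and 1.04. MT2A was at 30584 and 30164 CPM with ratios of 1.07, 0.971 and 1.01, and MT1G at 3122 and 3591 with ratios of 0.801, 0.993 and 0.833. The fitted log2 changes were 0.40 (SE 0.17) for MT1X, 0.12 (SE 0.11) for MT2A and -0.29 (SE 0.39) for MT1G, where the median gene changed by 0.60. In Bio 0 of 7 members passed in edgeR, against 2.74% of 1754 genes, and 0 in DESeq2, against 211 genes called. As in dT, nothing is read from these counts.

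The difference between the screens in the YM115 term, Bio minus dT, was -0.67 (SE 0.23) for MT1X, -0.40 (SE 0.15) for MT2A and -1.14 (SE 0.43) for MT1G on the log2 scale. As values of the contrast that chose the members they carry no p. In edgeR 0 of 8 members passed, and 6.59% of the 4705 genes tested did. Nothing is read from that count either.

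**Figure D3:**
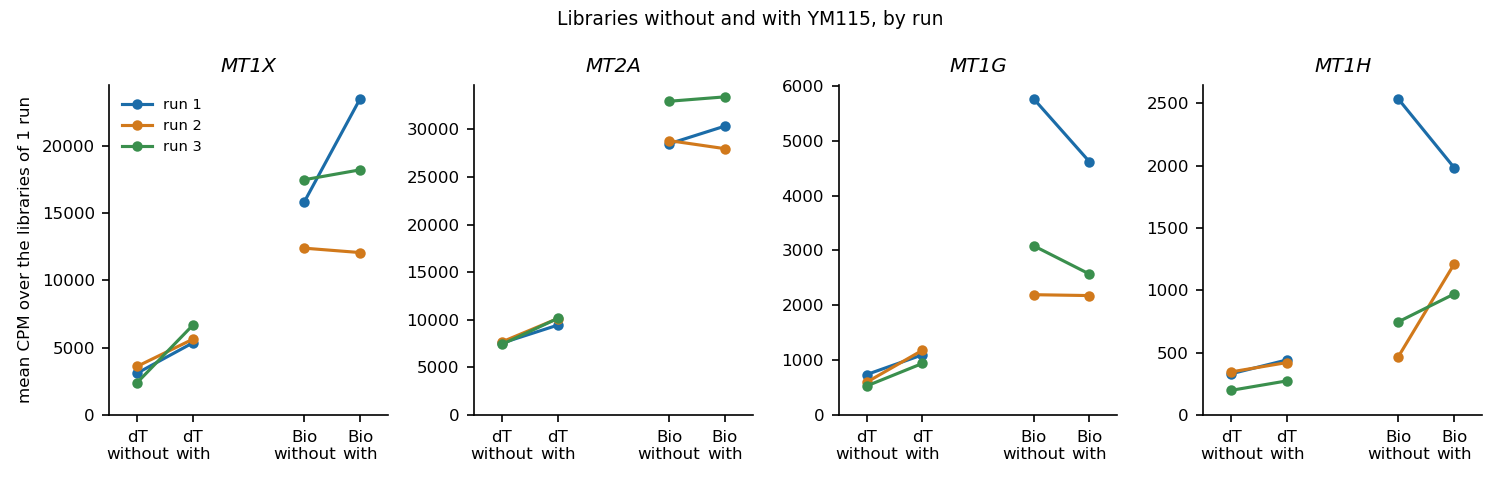
Mean CPM of MT1X, MT2A, MT1G and MT1H over the libraries without and with YM115, 1 line per run, in dT and in Bio. In dT the lines of MT1X, MT2A and MT1G rise in all 3 runs. In Bio those of MT1X and MT2A do not keep 1 direction, and MT1G is lower with YM115 in each run (ratios 0.801, 0.993 and 0.833).

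The counts of MT1X per count of MT2A in the same library do not depend on library size or scaling. In dT the ratio had a median of 0.402 without YM115 (0.199 to 0.771, n = 27) and 0.583 with it (0.431 to 0.862, n = 21). In Bio the medians were 0.513 (0.191 to 0.956, n = 23) and 0.526 (0.312 to 1.19, n = 21). The median ratio was thus higher with YM115 in dT and nearly the same in Bio, and the ranges with and without YM115 overlapped over most of their length in both screens. The separate DMSO controls lay lower, at 0.129 to 0.184 in dT and 0.162 to 0.307 in Bio.

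**Figure D4:**
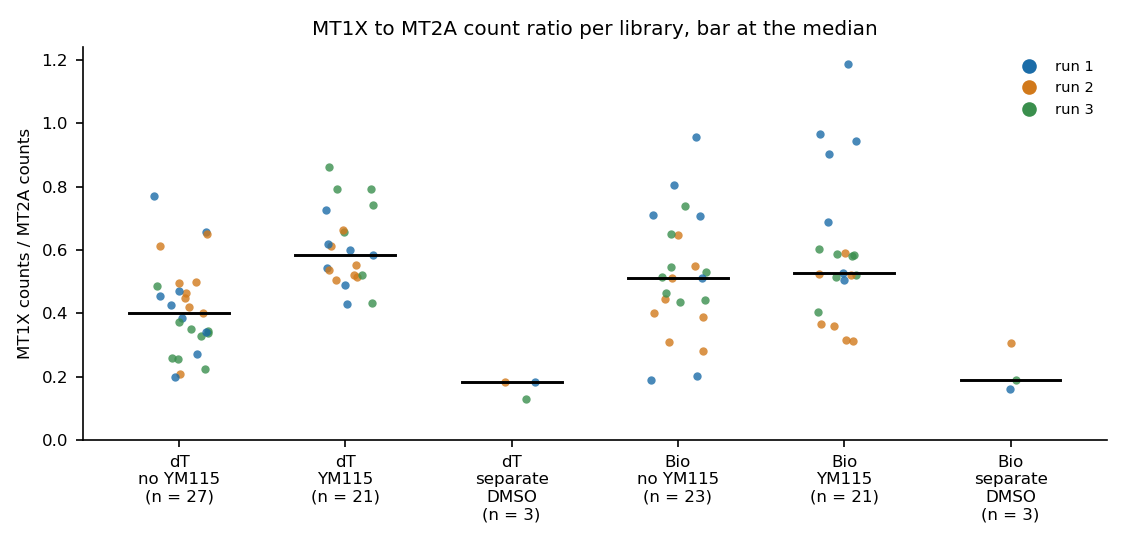
Counts of MT1X divided by counts of MT2A in each library, by screen, for libraries without YM115, with YM115 and for the separate DMSO controls; bars are medians. In dT the median rises from 0.402 to 0.583 with YM115, and in Bio it is 0.513 and 0.526.

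Because every drug was listed in both positions, the level could be set against the position. In dT, MT2A was at 11163 ± 1740 CPM with YM115 listed first only (8332 to 14443, n = 9), 8805 ± 1742 with YM115 listed second only (6128 to 11812, n = 9), 9413 ± 1106 with both portions YM115 (n = 3) and 7552 ± 1582 without. The libraries with it first stood higher as a group, and the ranges overlapped. By first-listed agent, MT2A was at 10726 ± 1747 CPM for YM115, 9108 ± 1509 for imatinib, 7366 ± 1586 for DMSO and 7122 ± 1317 for trametinib (n = 12 each).

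The joint test of first-listed against second-listed drug on 3 degrees of freedom (edgeR, Benjamini-Hochberg) called MT2A in dT, at adjusted p = 0.0343, with 420 of 3930 genes (10.7%) called. The fitted differences, first minus second, were 0.49 log2 for YM115, 0.18 for imatinib and -0.05 for trametinib. The YM115 difference, the largest of these, is part of the joint test. It comes from values known when the members were chosen, so nothing is read from this p. The other 6 members tested in dT did not pass, so 1 of 7 members stood beside a background of 10.7%. The MT2A call was held in 3 and lost in 8 of 11 alternatives (adjusted p 0.0109 to 0.261). Those held include the fit on every in-screen library, which repeats the main fit because no dT library was left out. The call was lost when any of runs 1, 2 or 3 was left out.

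MT1X showed the same ranking in dT without passing, at 6543 ± 877 CPM with YM115 first (5573 to 7968, n = 9) and 5139 ± 1287 with it second (3663 to 7383, n = 9; edgeR adjusted p = 0.365). In Bio, MT2A was at 34958 ± 6075 CPM with YM115 first and 26499 ± 5521 with it second (n = 9 each), with 29713 ± 163 for 2 portions (n = 3) and 30164 ± 5636 without. The fitted difference there was 0.11 log2 and the adjusted p of the joint edgeR test 0.370. No member passed, where 21.1% of 2112 genes were called. At an unadjusted p under 0.05 there were 0 of 7 members, against 776 of the 2112 genes. DESeq2 did call MT2A in Bio, among 14 genes called. The fit scales each library by TMM and CPM does not, and the part of this scaling in the gap between the CPM levels and the fitted difference was not tested.

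For imatinib, MT2A was the member that passed, in dT alone. Its level was 9217 ± 2160 CPM with imatinib (lowest 5392, median 9278, highest 14443, n = 21) and 8086 ± 1949 without it (5028, 8332 and 11988, n = 27). The means differed by less than 1 SD and the ranges overlapped over most of their length. The ratio of run means was 1.09, 1.06 and 1.28. With the other drugs and run in the fit, the log2 change was 0.40 (SE 0.10, edgeR adjusted p = 0.016), beside a median of 0.07 over all genes, and 1 of 7 members was called where 2.88% of 3930 genes were.

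The MT2A call for imatinib was held in 6 and lost in 7 of 13 alternatives. Over these the log2 change ran from 0.26 to 0.58 and the adjusted p from 0.00218 to 0.632. Those held again include the fit on every in-screen library, which in dT repeats the main fit. The call was lost without run 2 (adjusted p = 0.151) or run 3 (0.38), and without the replicate block (0.0787). MT1X changed by 0.27 (SE 0.14, adjusted p = 0.393) and MT1G by -0.01 (SE 0.22) with imatinib in dT. In Bio, with 18 libraries with imatinib and 26 without, MT2A was at 30476 ± 5839 and 30287 ± 6276 CPM. Its fitted change was 0.14 (SE 0.11, 95% interval -0.08 to 0.36) and that of MT1X 0.28 (SE 0.16, interval -0.04 to 0.60). In edgeR 0 of 7 members passed, where 2.39% of 1754 genes were called. At an unadjusted p under 0.05 there were 0 members, against 266 of the 1754 genes. DESeq2 called 0 members, and its share over all genes is not given here.

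Trametinib called no member in either screen (0 of 7 in each in edgeR), against backgrounds of 1.37% of genes in dT and 2.22% in Bio. No member had an unadjusted p under 0.05, where 497 of 3930 genes in dT and 222 of 1754 in Bio did. DESeq2 called no member either, and its share over all genes is not given here. MT2A was at 7838 ± 1656 CPM with trametinib (n = 21) and 9158 ± 2251 without (n = 27) in dT, with run ratios of 0.986, 0.802 and 0.795. These means are not adjusted for the other drugs. The fitted MT2A change, which is, was 0.08 (SE 0.10, interval -0.11 to 0.27), where the median of all genes was 0.23. MT1X changed by 0.20 (SE 0.14, interval -0.07 to 0.48) in dT and 0.28 (SE 0.17, interval -0.04 to 0.61) in Bio. The intervals of MT1E, MT1B, MT1F and MT1H were several times wider, as for MT1F in dT at -1.37 (interval -3.19 to 0.44).

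**Figure D5:**
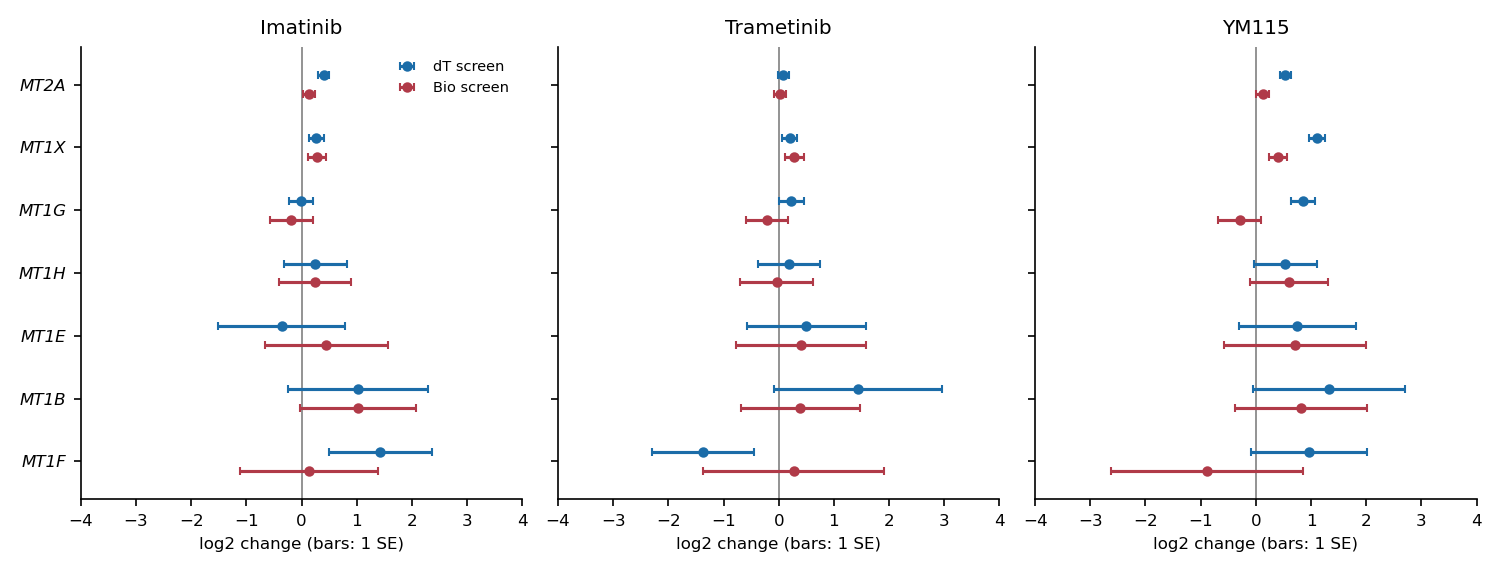
Fitted log2 change ± 1 SE of 7 members for imatinib, trametinib and YM115 in dT and Bio; MT1L had too few counts to be tested. Points with short bars (MT2A, MT1X and in dT MT1G) carry the information, and the largest of them is MT1X with YM115 in dT at 1.11.

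Whether a pair of drugs departed from the sum of its single terms was tested with a product term for each of 3 pairs. No member passed in edgeR in either screen. The backgrounds were 0.447%, 0.431% and 0.527% of 6263 genes in dT and 0.379%, 0.0292% and 0.525% of 3429 genes in Bio for imatinib with trametinib, imatinib with YM115 and trametinib with YM115. In dT the departures of MT2A were -0.04, -0.07 and -0.31 and those of MT1X -0.09, -0.33 and -0.37, with SEs of 0.27 and 0.39. There 0 of 7 members had an unadjusted p under 0.05, against 1208, 1106 and 1075 of the 6263 genes. In DESeq2 0 of 7 passed, against 951, 914 and 800 genes called.

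MT1X in Bio departed downward for every pair, by -0.79 (SE 0.44), -0.76 (SE 0.44) and -0.91 (SE 0.43, adjusted p = 0.232), where the median gene departed by -1.22, -1.77 and -2.04. MT1L departed by 6.66 (SE 2.97, edgeR adjusted p = 0.244) for imatinib with YM115, a value that rests on a few counts. DESeq2 called it among 868 genes. MT1L and MT1X were the members with an unadjusted p under 0.05 in Bio, in 1 pair each, among 593 and 690 of 3429 genes. Both pairs contain YM115, whose values were known when the members were chosen, so nothing is read from these p-values. The edgeR terms for drug by screen called 0 of 8 members for imatinib (5.84% of 4705 genes) and 0 of 8 for trametinib (4.53%). At an unadjusted p under 0.05 there were 0 members, against 1014 and 895 of the 4705 genes. DESeq2 called 0 members, against 1019 and 876 genes. For MT2A the imatinib term differed between the screens by -0.20 (SE 0.15, interval -0.48 to 0.09), so its call in dT is not shown to be particular to dT.

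The 3 separate DMSO controls per screen stood apart from the in-screen libraries in general. They held 7410 to 10361 detected genes in dT and 5501 to 7058 in Bio, above every in-screen library, and 10.2%, 31% and 36.9% mitochondrial counts in dT and 5.1%, 25% and 28.1% in Bio. MT2A in the dT controls was at 16016, 2770 and 9182 CPM, against 5028, 7008 and 6838 in DMSO_DMSO. In Bio it was at 10380, 1712 and 1366 CPM, against 29951, 29494 and 39496. In both screens the control with the lowest mitochondrial share held the most MT2A, and the part of the mitochondrial share in the comparison was not tested.

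MT1X in the separate controls was at 2946, 506 and 1183 CPM in dT, within and below the 3310, 1474 and 2360 of DMSO_DMSO, and at 1679, 526 and 261 in Bio, below the 5715, 8254 and 17163 of DMSO_DMSO. MT1G was at 867, 22.4 and 20.1 CPM in Bio, of which the last 2 rest on 2 and 1 counts, against 6872, 1595 and 3496. The Bio groups did not overlap for MT2A, MT1X or MT1G. In dT they overlapped for all 3 genes.

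In the Bio fit MT2A fell by 3.02 (SE 0.52, edgeR adjusted p = 4.05e-05) and MT1X by 3.82 (SE 0.70, adjusted p = 1.28e-04) on the log2 scale in the separate controls, while the median of all 6158 genes tested stood 5.34 higher there. These were 2 of the 3 genes called (0.0487%). The levels of the members were known when they were chosen, so nothing is read from that count or from these p-values. MT1G changed by -4.39 (SE 1.34, adjusted p = 0.327). Both calls were held in 8 of 10 alternatives, over which MT2A ran from -5.01 to -2.48 and MT1X from -5.8 to -2.97. Both were lost without run 3 and the control numbered 3 (edgeR adjusted p = 0.735) and without the filter on low counts. In dT 0 of 7 members passed where 0.116% of 6917 genes did. An unadjusted p under 0.05 was found for 2 members (MT2A and MT1B) and for 1118 of the 6917 genes. DESeq2 called MT1X among 536 genes. There MT2A differed by 1.00 (SE 0.32, adjusted p = 0.295) and MT1X by -0.24 (SE 0.45, adjusted p = 0.779), with a median of 3.39 over all genes.

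Of the Bio libraries left out, Imatinib_Imatinib held 3623, 159 and 6096 CPM of MT2A and no count of MT1X in any run, out of totals of 30359, 25110 and 17882 counts. With MT1X at a median of 16307 CPM in the libraries that passed, these 3 stood apart for both genes. They are 3 shallow libraries with 438 to 472 detected genes, and a change of the cells and a failed library cannot be told apart. DMSO_Trametinib run 1 held 13861 CPM of MT2A, below every passing Bio library, and 24198 of MT1X, which is within their range.

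Other genes of metal handling were mostly too scarce to test. Of 13 further metallothionein genes and pseudogenes 1 was tested in dT and 2 in Bio, of 19 genes of zinc handling 2 and 2, of 12 genes of copper handling 4 and 0, and of 11 targets and regulators of NRF2, the oxidative stress factor, 8 and 6. These lists were drawn up with earlier results of these data known. MTF1, the factor that reads the metal response element, was counted in 1 of 48 dT and 0 of 44 Bio libraries, which at these depths limits its count and not its presence. MT1XP1, a pseudogene that shares read windows with MT1X, was counted in every passing library at a mean of 29.5 CPM in dT and 147 in Bio, and MT2P1 in 42 and 44. Both pseudogenes thus stood higher in Bio, as their parents did.

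No other metallothionein gene passed for a drug within a screen in edgeR. Among the zinc genes, SLC30A1, the zinc exporter of the plasma membrane, passed with YM115 in Bio, with a count in 16 of 21 libraries with YM115 (median 38.1, mean 803 CPM) and in 6 of 23 without (median 0, mean 7.18 CPM). Without YM115_YM115 run 1 the mean with YM115 was 401 CPM. The 8 libraries with the most SLC30A1 all contained YM115, led by YM115_YM115 run 1 at 8852 CPM and run 3 at 1611 CPM. In dT it was counted in 2 of 48 libraries and was not tested.

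Among the copper genes, CCS, the copper chaperone for superoxide dismutase, passed with trametinib in dT, with a count in 11 of 21 libraries with the drug and 4 of 27 without (log2 change 4.94, SE 1.06, edgeR adjusted p = 0.00909). Among the NRF2 genes, NQO1, a quinone reductase, passed with YM115 in Bio, counted in 8 of 21 libraries with it and 2 of 23 without, with a median of 0 in both. SLC30A1, CCS and NQO1 were absent from most libraries of the lower group and entered the test chiefly through the group where they were high, so nothing further is read from these calls. For imatinib in dT the smallest p of each list belonged to MT1XP1 (0.23, adjusted p = 0.916), SLC39A13 (-4.16, adjusted p = 0.0815), ATOX1 (3.39, adjusted p = 0.217) and TXNRD1 (2.04, adjusted p = 0.409), and none passed. For trametinib in dT the smallest of the metallothionein and zinc lists were MT1XP1 (0.26, adjusted p = 0.913) and SLC39A13 (-2.86, adjusted p = 0.524). In the remaining comparisons, edgeR called ATOX1, SLC39A13 and SCO1 for position in dT (adjusted p = 0.0174, 0.0119 and 0.0117). It also called the Bio minus dT difference of ATOX1 for imatinib (-7.15, adjusted p = 0.0128), of CCS for trametinib (-8.37, adjusted p = 0.00338) and of the metallothionein gene MT1A for YM115 (-2.89).

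Across the 48 dT libraries, after run means were removed, log2 CPM of MT1X went with that of MT2A at r = 0.62 and with that of MT1G at r = 0.60, and across the 44 Bio libraries at 0.19 and -0.10. With the remaining members MT1X went at 0.29 (MT1F), 0.12 (MT1E), 0.11 (MT1B), 0.06 (MT1H) and -0.09 (MT1L) in dT. In Bio the values were 0.49 (MT1E), 0.47 (MT1B), 0.04 (MT1L), -0.03 (MT1F) and -0.03 (MT1H). Of 2187 genes compared, those most like MT1X in dT other than members were HBG2 (0.61, and 0.13 in Bio), MT1XP1 (0.59 and 0.56), UQCRQ (0.59 and 0.34), NDUFA13 (0.58 and 0.15) and CCAR1 (0.57 and 0.05). Those most like MT2A were HBG2 (0.59 and 0.09), the unnamed gene ENSG00000250321 (0.58 and 0.31), RPL31 (0.58 and 0.07), HSPE1 (0.56 and 0.10) and GPM6A (0.52 and 0.27). MT1XP1 was the 1 gene of these whose likeness to MT1X was near the same size in both screens, and it shares read windows with MT1X. The points share library depth, with which MT1X went at 0.26 in dT and 0.28 in Bio and MT2A at 0.46 and 0.11, so these values are a description and carry no p.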

How the data were processed

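The deposited table holds raw read counts per gene that the authors made from 34 groups of 3 libraries, and the submitters' processing notes name STAR 2.4.2a and GRCh38; no collapsing of molecular identifiers is described, so intervals and floors cover counting error only. Counts were divided by the library total for CPM. In-screen libraries with at least 1000 detected genes and at most 15% mitochondrial counts were kept (48 in dT, 44 in Bio). Each screen was fitted with edgeR 4.0.16 in R 4.3.3 (TMM, filterByExpr, quasi-likelihood test, run as a block, as the study removed the replicate batch), and p-values were adjusted by Benjamini-Hochberg over all genes tested, with a threshold of 0.05. SEs were the log2 change over the root of the F statistic. The separate controls were set against DMSO_DMSO in a fit with all groups of a screen and were exempt from the filter. DESeq2 1.42.0, other size factors, other filters, no block, log2 total as a term and leaving out each run were alternatives. The fit was checked on simulated counts. Drugs were called by listed position because the labels do not say which source each came from.

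The run number, which the labels give, marks 1 performance of the whole process. Deviations from group means went together slightly within a run (mean r 0.024 in dT and 0.027 in Bio). The negative values between runs (-0.012 and -0.013) largely follow from taking out the group means. They are therefore no separate evidence on the runs. No 2 replicates of a group were identical. Where runs were not separate cultures, p-values measure technical spread. The members and gene lists were chosen with earlier results of these data known. By rule all 8 members were named, with the 5 genes most correlated with MT1X and with MT2A in dT, and from each list the gene with the smallest p for imatinib and trametinib in dT and any gene past the threshold; a few genes that these rules name are not reported here. Gene annotation was GENCODE v29, and promoter sequences were those of RefSeq for GRCh38.p14.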

Additional observations from a re-analysis of the deposited data

Results flagged for a closer look

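Both results singled out here come from Bio libraries that were left out of the fits, and each stood above the highest in-screen DMSO_DMSO library of that screen. MT1X was at 24198 CPM in DMSO_Trametinib run 1, against 5715 to 17163 CPM in DMSO_DMSO. MT1H was at 7741 CPM in Imatinib_Imatinib run 1, against 147 to 3445 CPM in DMSO_DMSO, and it was at 0 in the other 2 runs of that condition. Groups of 3 libraries were not tested for single outlying libraries.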

How the results depend on the processing

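Nothing is read from counts of members for YM115, position, pairs with YM115 or the separate controls. Values for these were known when the members were chosen. The log2 change of MT2A with imatinib in dT stayed above 0 in all 13 alternatives. The small Bio difference of MT2A with YM115 turned its sign when run 1 was left out. The MT2A calls for imatinib and for position in dT were lost in 7 of 13 and 8 of 11 alternatives. The count of members past the threshold held in most alternatives, though in many of them it was 0 in both fits, and 3 against 2 was taken as held. With imatinib in dT it went from 1 to 0 with no low-count filter, with genes counted in at least 50% of libraries, without the replicate block, with log2 total as a term and in DMSO and 1-drug conditions alone, and leaving out 1 run gave 0 to 1. With YM115 in dT it went from 3 to 1 with no low-count filter, to 2 in DESeq2 (MT2A lost) and with log2 total (MT1G lost) and to 0 in DMSO and 1-drug conditions alone, and leaving out 1 run gave 1 to 2. For position in dT it went from 1 to 0 with no low-count filter, without the replicate block, in DESeq2 and with log2 total as a term, and leaving out 1 run gave 0 each time. Under the 50% filter the 1 member called was MT1L and not MT2A. For position in Bio it went from 0 to 1 (MT2A) with other size factors, in DESeq2 and with log2 total. For imatinib with YM115 in Bio it went from 0 to 1 (MT1L) in DESeq2, where 868 genes were called. For YM115 by screen it went from 0 to 1 (MT1G) in DESeq2 and to 2 with log2 total, and leaving out 1 run gave 0 to 1, with MT1X called without run 1. For the separate controls it went from 0 to 1 (MT1X) in dT in DESeq2 and from 2 to 0 in Bio with no low-count filter, and leaving out 1 run gave 0 to 2 in Bio. The log2 ratio of Bio to dT for MT2A moved from 1.82 to 1.53 with TMM sizes. The same ratios without each run were added after the data were seen. Removing the block of run changed no other count of members, while calls over all genes went from 113, 54 and 103 to 12, 9 and 23 for imatinib, trametinib and YM115 in dT, from 42, 39 and 48 to 4, 6 and 12 in Bio, and for position from 420 to 246 and from 446 to 253. The cause of these changes was not tested.

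Over all genes, calls for imatinib in dT ran from 0 to 510 around 113, for trametinib from 0 to 468 around 54, and for YM115 from 0 to 503 around 103. In Bio they ran from 0 to 218 around 42, from 0 to 182 around 39 and from 0 to 211 around 48. For position they ran from 18 to 1432 around 420 in dT and from 6 to 700 around 446 in Bio. For pairs, 1 to 33 calls became up to 951 in DESeq2, for drug by screen 213 to 310 became 0 to 1057, and for the separate controls 8 in dT became 2 to 536 and 3 in Bio became 0 to 750. Depth limits MT1E, MT1B, MT1F and MT1L, which were absent from many libraries.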
